A study of Drosophila melanogaster with 2 samples.

Results

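The translation initiation factor genes of Drosophila melanogaster were taken as every protein-coding gene in the Ensembl BDGP6 annotation whose symbol begins with eIF, which gave 44 of the 13968 protein-coding genes. They were described by the chromatin immunoprecipitation (ChIP-seq) peaks of Aristaless, a paired-class homeodomain transcription factor encoded by al and known for its part in patterning the distal leg, antenna and wing. The single group was a transgenic strain, al-GFP, in which al is fused to eGFP. Whole embryos aged 0 to 24 h were used, the tagged protein was recovered with an anti-GFP antibody, and sonicated fragments measured 200 to 800 bp. The labels number 2 libraries as biological replicates 1 and 2 of this group, so there was no contrast between conditions and no test of one. The insertion targets al, and no other allele or agent is named. Whole embryos mix all cell types and all embryonic ages, so a peak does not say in which cells the protein sat. Control libraries that the labels call possible were not analysed here, nor was any untagged strain, so signal from al-eGFP and signal that open promoters give in any such experiment cannot be told apart.

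Translation initiation factors load the initiator tRNA and the mRNA onto the small ribosomal subunit, find the start codon and join the large subunit. eIF2 carries the initiator tRNA, eIF2B recharges eIF2 with GTP, eIF3 is the large scaffold on the small subunit, and eIF4A, eIF4E and eIF4G together bring in capped mRNA. Most of these genes are active in nearly every cell, whereas several fly genes of the eIF3, eIF4E, eIF4G and eIF4H types are copies known mainly from the testis or germ line.

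Sequences around the peak summits of 7 genes are shown first, each 201 bases long, centred on the summit and written 5′ to 3′ on the strand of the gene named. They were read from the release 6 RefSeq genome sequence, whose coordinates are those of dm6. Capitals mark the letters TATCGATA, the DNA replication-related element (DRE) bound by the promoter factor DREF, and TAATTA, a core to which many homeodomain proteins bind. GGTCACACT, known as Motif 1 of fly core promoters, was also searched and marked, and none of these 7 sequences held it. All motifs were searched on both strands, and the DRE reads the same on both. The DRE and TAATTA cannot hold one another, though their end letters can overlap. eIF1, eIF1A, eIF2gamma and eIF3a are shown because a DRE lies near their summits, eIF5B as the strongest own-TSS peak among the shown genes, eIF2Bbeta as the strongest peak within 2 kb, and eIF4EHP as a strong ranked entry that the thresholded lists do not hold.
eIF1 (chr3L:3222922-3223122, plus strand): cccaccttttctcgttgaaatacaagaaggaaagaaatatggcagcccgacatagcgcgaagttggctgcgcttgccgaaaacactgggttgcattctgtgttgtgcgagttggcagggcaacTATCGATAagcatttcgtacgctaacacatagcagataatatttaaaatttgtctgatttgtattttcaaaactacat
eIF1A (chr3R:18274455-18274655, plus strand): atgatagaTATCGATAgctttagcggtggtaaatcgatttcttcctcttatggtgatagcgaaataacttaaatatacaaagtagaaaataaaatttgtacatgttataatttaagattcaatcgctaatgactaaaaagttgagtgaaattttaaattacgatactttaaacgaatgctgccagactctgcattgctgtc
eIF2gamma (chr3R:15263444-15263644, minus strand): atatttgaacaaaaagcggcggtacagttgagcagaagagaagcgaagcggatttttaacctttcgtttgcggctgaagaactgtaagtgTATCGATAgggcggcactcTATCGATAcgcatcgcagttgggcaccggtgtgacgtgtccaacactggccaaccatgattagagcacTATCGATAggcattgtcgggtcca
eIF3a (chr3R:4433850-4434050, minus strand): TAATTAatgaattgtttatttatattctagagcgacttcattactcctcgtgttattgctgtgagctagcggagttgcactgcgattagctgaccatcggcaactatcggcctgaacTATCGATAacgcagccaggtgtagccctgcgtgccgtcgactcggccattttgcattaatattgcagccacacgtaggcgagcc
eIF5B (chr3L:3460634-3460834, minus strand): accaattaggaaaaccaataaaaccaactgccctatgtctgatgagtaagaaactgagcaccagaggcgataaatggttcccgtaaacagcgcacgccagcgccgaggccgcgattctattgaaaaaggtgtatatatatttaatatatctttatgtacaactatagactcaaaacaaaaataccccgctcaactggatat
eIF2Bbeta (chrX:2703788-2703988, plus strand): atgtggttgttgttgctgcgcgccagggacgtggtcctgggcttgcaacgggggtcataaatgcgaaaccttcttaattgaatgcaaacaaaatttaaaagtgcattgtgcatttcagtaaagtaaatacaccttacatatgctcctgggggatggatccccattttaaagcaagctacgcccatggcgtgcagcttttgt
eIF4EHP (chr3R:24109090-24109290, minus strand): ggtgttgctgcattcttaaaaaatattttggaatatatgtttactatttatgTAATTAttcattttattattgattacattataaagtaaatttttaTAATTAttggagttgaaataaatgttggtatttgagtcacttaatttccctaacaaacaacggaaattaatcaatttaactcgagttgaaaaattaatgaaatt

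In the peaks of the eIF1, eIF1A, eIF2gamma and eIF3a promoters the DRE lay 23 bp, 92 bp, 9 bp and 17 bp from the summit, counted to the first base of the nearest match. eIF2gamma held 3 matches, at 9, 10 and 77 bp. Of the 10 initiation factor genes with a peak at their own transcription start site (TSS), these 4 had the DRE within 100 bp of the summit of the strongest such peak, against 8.22% of the 1958 series peaks that lie at a promoter. In all 4 the TSS nearest to the series summit was another gene's, namely RpL28 (62 bp), Vps39 (109 bp), Set (8 bp) and CG1074 (15 bp). These DRE matches therefore cannot be given to the initiation factor genes alone. TAATTA was present within 100 bp in 1 of the 10, eIF3a, where it lay 100 bp from the summit, against 18.9% of promoter peaks. Motif 1 was found in 0 of 10 against 2.45%, the GAGA letters GAGAG in 1 (eIF3c) against 19.7%, the E-box CACGTG in 0 against 2.25%, the TATA letters TATAAA in 3 against 37.8%, and the initiator letters TCAGT in 2 against 30.7%. The paired-class dimers, which join TAAT and ATTA across a spacer of 2 or 3 bp and so can hold or overlap TAATTA, were absent from the 10 windows, against 3.52% and 3.17% of promoter peaks. These windows hold only the strongest own-TSS peak of each gene. The second, weaker own-TSS peak of eIF3h (signal 45.4) did hold the dimer with the 3 bp spacer. A match is only a match of letters, and a missing match says only that those letters are not in the window.

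The main list was the thresholded list of the whole series, for which the authors used both replicates. It held 3848 peaks with a median signal of 90.0, an enrichment value of the authors with unstated scaling. A conservative series list held 3493 peaks, the list of replicate 1 held 2987 and that of replicate 2 held 2114. Each deposited list is also present in an unthresholded, ranked form with the irreproducible discovery rate (IDR), the estimated rate at which entries fail to recur between the inputs compared. In the ranked form no thresholded series peak exceeded a global IDR of 0.01, yet 950 of the 3848 had a q value of their own above 0.05. Read depth is unknown, because the lists hold no read counts.

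A summit lay within 500 bp of the own TSS of 10 of the 44 initiation factor genes (22.7%), against a background of 18.7% of all protein-coding genes. The list of replicate 1 gave 10 genes (22.7%) against 15.5%, and that of replicate 2 gave 6 (13.6%) against 12.1%. The conservative list gave 8 (18.2%) against 17.7%. Over the replicates the count was 8 ± 2.83 (SD, n = 2). Outside replicate 1 these shares lie close to the background, and they single out nothing about the family.

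A summit lay inside the gene or within 2 kb of it for 18 of the 44 (40.9%), against 33.3% of all genes. The conservative list gave 18 (40.9%) against 31.4%, replicate 1 gave 16 (36.4%) against 28.1%, and replicate 2 gave 14 (31.8%) against 22.2%. The count over the replicates was 15 ± 1.41 (SD, n = 2). The members were about as long as other genes, with a median length of 1968 bp against 2164 bp. Of the 44 genes, 10 had an own-TSS peak, 8 had a peak within 2 kb only and 26 had neither. Of the 18, only eIF3h, eIF4EHP and eIF5B had a summit inside the gene itself.

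**Figure D1:**
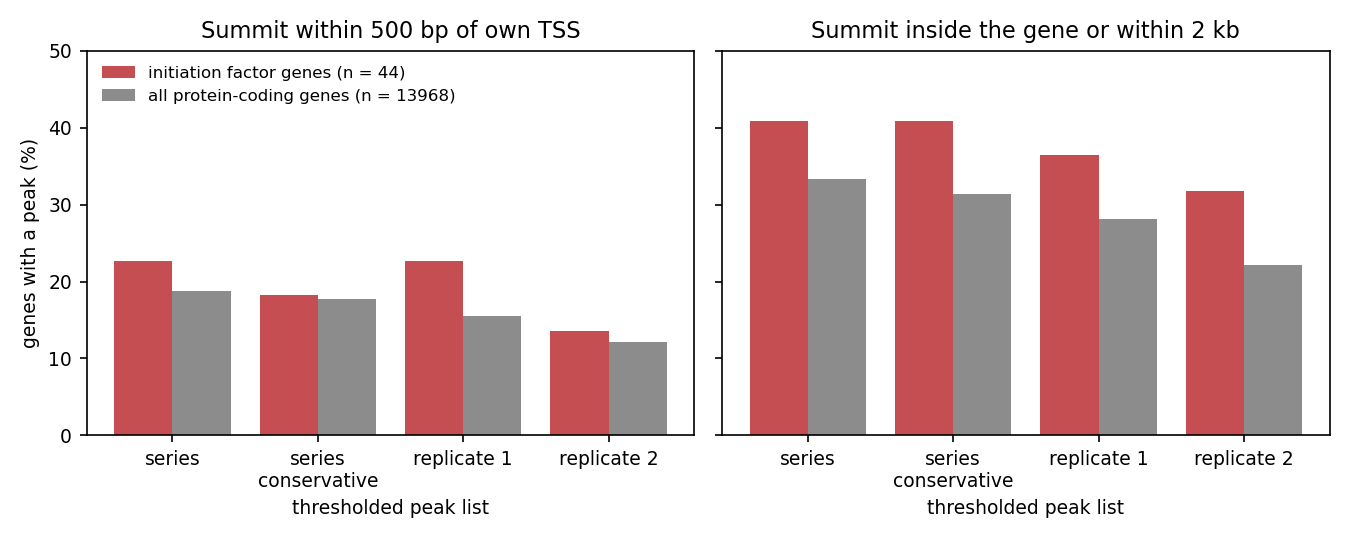
Share of the 44 initiation factor genes and of all 13968 protein-coding genes with a peak summit, in percent, in each of the 4 thresholded lists. The left panel counts summits within 500 bp of the own TSS (22.7% against 18.7% in the series list), the right panel summits inside the gene or within 2 kb (40.9% against 33.3%), and the initiation factor bars are the higher in every list.

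Other genes of protein synthesis had larger own-TSS shares in the series list. The cytoplasmic ribosomal protein genes had such a peak at 50 of 93 (53.8%) and the aminoacyl-tRNA synthetase genes, whose enzymes charge the tRNAs, at 10 of 33 (30.3%). In replicate 1 the same shares were 51.6% and 27.3%, and in replicate 2 they were 41.9% and 21.2%. Among 24 matched genes of elongation, termination and control of initiation, 11 had an own-TSS peak (45.8%) and 12 a peak within 2 kb (50%). Their own-TSS share was 41.7% in replicate 1 and 29.2% in replicate 2. The strongest of these was at eEF1gamma, an elongation factor subunit, with a signal of 279. The release factor genes eRF1 and eRF3 followed with 184 and 159. eEF1alpha1, which delivers charged tRNAs, had 136, and eEF5, the fly eIF5A, had 108. Lower values stood at pAbp, the poly(A)-binding protein (99.1), at MCTS1 (82.6), at pix, a ribosome recycling factor (80.6), at NAT1, an eIF4G relative (74.2), at Paip2 (62.3) and at Thor, the fly 4E-BP that holds eIF4E (50.3). Neither replicate's list held an own-TSS peak at pAbp or Paip2, and that of replicate 2 held none at MCTS1 or Thor. S6k, a kinase of the small ribosomal subunit, had a peak within 2 kb only, with a signal of 59.0. No series peak lay within 2 kb of eEF1alpha2, eEF1beta, eEF1delta, eEF2, eEFSec, Gcn2, PEK, DENR, mxt, 4E-T, Lk6 or cup, although eEF2 had an own-TSS peak in the list of replicate 1. No test of these differences was made, and the counts stand side by side only.

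The 10 own-TSS peaks spanned a wide range of signal. Taking the strongest own-TSS peak of each gene, the median was 79.6, against 108 over the 2606 genes with such a peak. In the series list eIF6 ranked 9, eIF3c 506, eIF5B 1054 and eIF1 1282 of 3848, and the other 6 ranked from 2116 (eIF2gamma) to 3152 (eIF2D). Signals of a replicate below come from its own ranked list. Replicate 1 gave the higher signal at every gene but eIF3m, and its ratio to replicate 2 ran from 0.991 to 2.11 with a median of 1.57. The order of the 10 signals was similar in the replicates (Spearman's rho 0.867 over 10 genes, given as a description, since the points share their libraries). The 10 genes were also chosen by a list drawn from both replicates, which can itself favour similar order. At eIF3h the replicate values come from summits at different places, as given below.

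eIF6, which binds the large ribosomal subunit and keeps it from joining too early, carried by far the highest own-TSS peak. Its signal was 1381 in the series list, 823 in replicate 1 and 568 in replicate 2. The peak, chr2R:23850256-23850560 in dm6, had its summit 109 bp upstream of the eIF6 TSS inside an intron of the neighbouring gene ytr. No other protein-coding TSS lay within 500 bp. Both replicate signals were several times those at any other own-TSS peak of the family.

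Both genes of the eIF1 and eIF1A group, whose products bind the small subunit during scanning for the start codon, had an own-TSS peak. The eIF1 peak (chr3L:3222857-3223186) had a signal of 123 in the series list, 62.6 in replicate 1 and 54.3 in replicate 2. Its summit was 319 bp upstream of eIF1 but only 62 bp from the TSS of RpL28, a protein of the large ribosomal subunit encoded on the opposite strand. Among the own-TSS peaks it was the farthest from its gene. The eIF1A peak (chr3R:18274390-18274719) had 68.1 in the series list, 49.4 in replicate 1 and 27.8 in replicate 2, where its global IDR was 0.730 and the thresholded list lacked it. Its summit stood midway between the divergent starts of eIF1A, 110 bp away, and Vps39, 109 bp away.

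Of the 3 eIF2 subunit genes, eIF2gamma, which encodes the subunit that binds GTP and the initiator tRNA, had an own-TSS peak (chr3R:15263379-15263708). Its signal was 83.3 in the series list, 43.8 in replicate 1 and 36.9 in replicate 2. The summit was 86 bp upstream of eIF2gamma and 8 bp from the TSS of Set on the opposite strand. The histone methyltransferase gene Su(var)3-9, whose transcripts share their first exons with those of eIF2gamma, starts there too, so the peak cannot be given to any single one of these genes. eIF2beta had a peak within 2 kb only, and eIF2alpha, whose product is the target of the stress kinases Gcn2 and PEK, had none.

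eIF2D, which can place an initiator tRNA on the ribosome without eIF2, had the lowest signal of the 10 genes when each is taken by its strongest own-TSS peak (chr3R:29151706-29152035). Its signal was 57.6 in the series list with a q value of 0.0944, 41.3 in replicate 1 and 19.6 in replicate 2, where the global IDR was 0.711. A second peak of 90.9 lay 1592 bp beyond the 3′ end of eIF2D, 38 bp from the TSS of Pglym78, a phosphoglycerate mutase gene. The second peak was in all 4 thresholded lists, with 47.0 in replicate 1 and 43.9 in replicate 2, whereas the own-TSS peak was in the series and replicate 1 lists only.

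The 16 eIF3 genes held 4 of the 10 covered promoters. Over all genes 18.7% were covered, and the subunit groups are too small for their counts to be read further. eIF3c, which encodes a core scaffold subunit, had the strongest of the 4 eIF3 promoter peaks (chr2R:17665564-17665711), with 225 in the series list, 133 in replicate 1 and 95.1 in replicate 2. Its summit was 34 bp upstream of the TSS with no other protein-coding start within 500 bp. eIF3a, the other large scaffold subunit, had 60.0 (chr3R:4433785-4434114) in the series list, with a q value of 0.0711, 41.0 in replicate 1 and 20.0 in replicate 2, where the global IDR was 0.271. Its summit was 55 bp upstream of eIF3a and 15 bp from the divergent CG1074.

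eIF3h and eIF3m encode further subunits of the eIF3 core. eIF3h had 2 overlapping series peaks, 1 of signal 75.9 in its intron 295 bp downstream of the TSS (chr2L:5052320-5052649) and 1 of 45.4 in its 5′ UTR 11 bp downstream, with a q value of 0.402. Both overlapped the same replicate entries, 61.0 in replicate 1 and 35.9 in replicate 2. The summits of these entries were at different places, 286 bp from the nearest own TSS in replicate 1 and 25 bp in replicate 2. The replicate 2 entry missed the threshold of 0.01 with a global IDR of 0.0205. On the opposite strand, senju starts 63 bp from an eIF3h TSS. eIF3m (chr2R:14164750-14165079) had 71.4 in the series list, 41.9 in replicate 1 and 42.3 in replicate 2. Its series summit was 90 bp upstream, and CG8323 starts on the opposite strand 226 bp from an eIF3m TSS. The replicate 1 summit was 149 bp from eIF3m and 77 bp from CG8323, whereas the replicate 2 summit was 9 bp from eIF3m. The replicate 2 list held a further eIF3m entry with a signal of only 2.11 and a q value of 0.967, which adds nothing to the count of covered genes.

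eIF5B, a GTPase that joins the subunits, had an own-TSS peak of 143 (chr3L:3460569-3460898), with 101 in replicate 1 and 51.5 in replicate 2. Its summit lay 131 bp upstream of the nearest eIF5B start but inside the gene, in the 5′ UTR of another transcript. This gene is 32320 bp long and carried 3 further intronic peaks, with signals of 182, 64.3 and 56.6 at 27737, 5430 and 23104 bp from the nearest own TSS. The strongest of these, with 126 in replicate 1 and 55.7 in replicate 2, exceeded the own-TSS peak in every list that held both. eIF5, which triggers GTP hydrolysis by eIF2, had no peak and no ranked entry near its TSS.

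**Figure D2:**
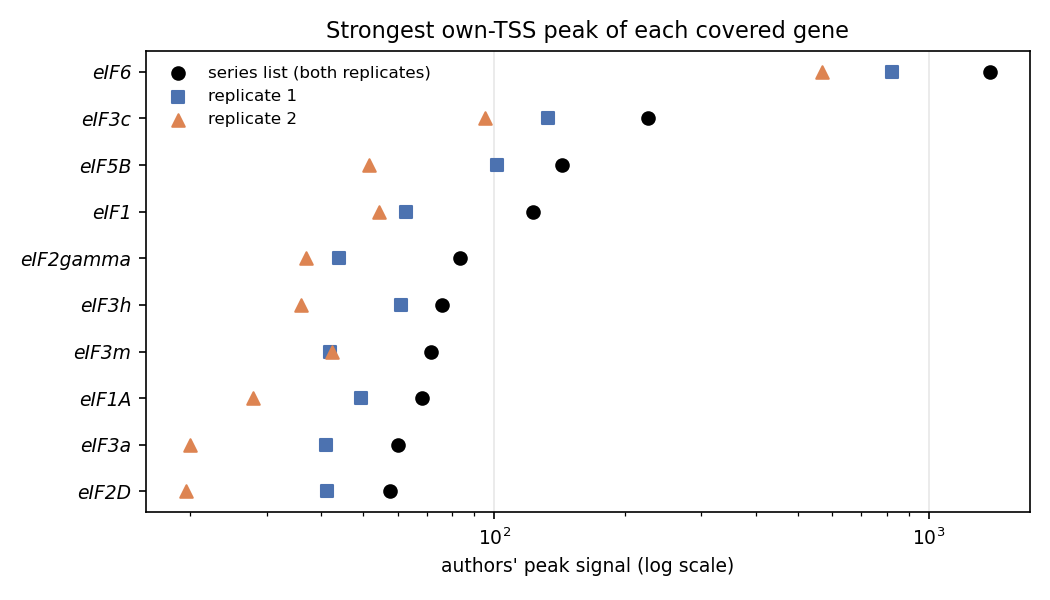
Signal of the strongest own-TSS peak at the 10 covered genes on a log axis, in the series list (circles), replicate 1 (squares) and replicate 2 (triangles); replicate values come from the ranked list of each replicate. eIF6 stands apart at 1381, 823 and 568, and the other 9 genes lie between 57.6 and 225 in the series list.

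eIF1, eIF2gamma, eIF3c, eIF3m, eIF5B and eIF6 had an own-TSS peak in each of the 4 thresholded lists, and in all 6 the replicate peaks overlapped. eIF1A and eIF3h lacked one in replicate 2, and eIF2D and eIF3a lacked one in replicate 2 and in the conservative list. These 4 were among the 5 lowest series signals of the 10, together with eIF3m.

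Of the 11 own-TSS peaks, 9 were upstream of the TSS (81.8%), against 88.7% of 2833 pairs of a gene and a summit within 500 bp over all genes. Their median distance was 90 bp, against 143 bp. Another gene's TSS lay within 500 bp of the summit in 7 of the 11. Among all 44 genes, 18 (40.9%) had a protein-coding TSS on the opposite strand within 500 bp, against 27.8% of all genes. Of these 18 genes, 7 had an own-TSS peak (38.9%), against 38.0% of all genes with such a neighbour. Of the other 26, 3 had one (11.5%), namely eIF2D, eIF3c and eIF6, against 11.2%. Within each class the initiation factor genes were thus covered about as often as genes in general. When a summit counted only for the gene with the nearest TSS, 6 genes remained, eIF2D, eIF3c, eIF3h, eIF3m, eIF5B and eIF6. The share over all genes was not taken under this rule, so the smaller count is not read further.

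**Figure D3:**
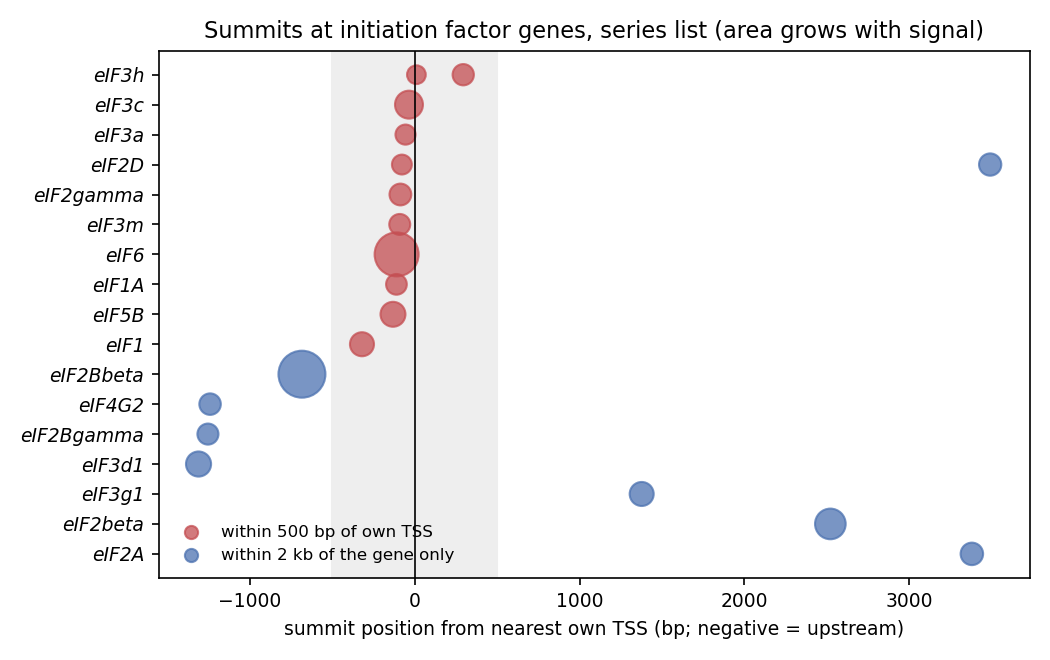
Position of each series summit relative to the nearest TSS of its own initiation factor gene, in bp, with upstream to the left. Red circles are own-TSS peaks (grey band, 500 bp on either side) and blue circles peaks within 2 kb of the gene only; circle area grows with signal, and the distant intronic summits of eIF4EHP and eIF5B are not drawn. Most own-TSS summits sit just upstream of the start, and the largest circles are eIF2Bbeta (1795) and eIF6 (1381).

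Around the TSS, from 250 bp before to 50 bp after it, 13 of the 44 genes (29.5%) held the DRE, against 10.2% of all genes. An own-TSS peak was present at 5 of these 13 (38.5%), namely eIF1A, eIF2gamma, eIF3a, eIF3c and eIF6, against 30.2% of all genes with the DRE. It was present at 5 of the 31 without it (16.1%), against 17.4%. The 8 genes with the DRE and no own-TSS peak were eIF2A, eIF2Bbeta, eIF2alpha, eIF3f1, eIF3l, eIF4A, eIF4B and eIF4E6. TAATTA was in the same window of 14 genes (31.8%), against 24.2%, and 2 of the 14, eIF1 and eIF3a, had an own-TSS peak. The share with an own-TSS peak was not taken over all genes with TAATTA, so the count of 2 is not read further. The letters CTTTT, part of the pyrimidine initiator of ribosomal protein promoters, started within 5 bp of a TSS on the sense strand in 3 of the 44 genes (6.82%), eIF3f1, eIF3i and eIF4A. The share was 32.3% in ribosomal protein genes and 2.87% in all genes. An own-TSS peak was present at 0 of these 3 genes, at 16 of the 30 ribosomal protein genes with the letters and at 113 of the 401 such genes among all genes, so the count over 3 genes says nothing about the family.

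**Figure D4:**
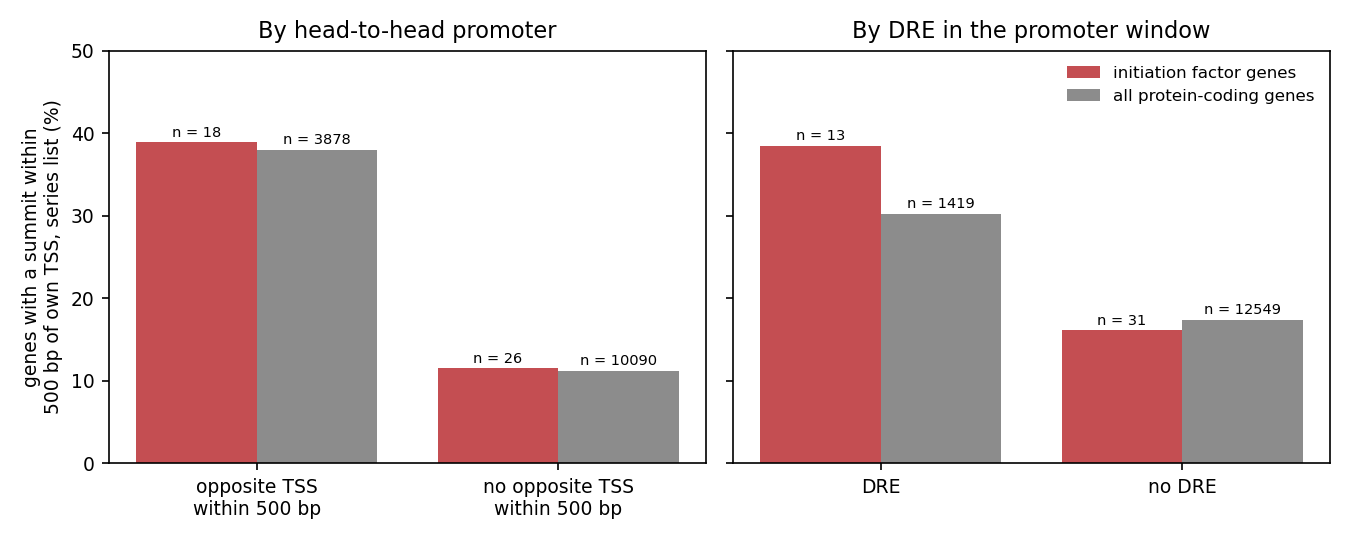
Share of genes with an own-TSS peak in the series list, in percent, split by a protein-coding TSS on the opposite strand within 500 bp (left) and by a DRE in the promoter window (right); n is the number of genes in each bar. The initiation factor genes had 38.9% with and 11.5% without an opposite TSS, beside 38.0% and 11.2% of all genes.

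Among peaks farther than 500 bp from the own TSS, the strongest near any initiation factor gene was at eIF2Bbeta, a subunit of the exchange factor that recharges eIF2. The peak, chrX:2703707-2704049, had a signal of 1795 (rank 4) in the series list, 1079 in replicate 1 and 728 in replicate 2. Its summit was 683 bp upstream of eIF2Bbeta but 36 bp from the TSS of Ugalt, a UDP-galactose transporter gene, and it was the nearest summit outside the 500 bp window. eIF2Bgamma had a peak of 72.5 at 1253 bp upstream, 27 bp from the TSS of Vha36-1, a proton pump subunit gene. It had 48.6 in replicate 1 and 22.7 in replicate 2 and was in neither replicate's thresholded list. eIF2Bdelta had a peak in the conservative list only, with a signal of 49.7 at 697 bp upstream, inside the 3′ UTR of roh. None of the 5 eIF2B genes, eIF2Balpha and eIF2Bepsilon included, had a peak at its own TSS, against 18.7% of all genes in the series list. With 5 genes this count is not read further.

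The eIF2beta peak had 326 in the series list, 186 in replicate 1 and 136 in replicate 2, and lay 883 bp past the 3′ end of the gene, 196 bp from the TSS of the acetyltransferase gene Gcn5. eIF2A, an alternative carrier of initiator tRNA, had 94.5 in the series list, 41.9 in replicate 1 and 45.9 in replicate 2, 488 bp past its end and 136 bp from CG32448. eIF3d1, whose product is known in human cells as a cap-binding subunit of eIF3, had 147 at 1310 bp upstream, 166 bp from GILT2, with 86.7 in replicate 1 and 61.3 in replicate 2. eIF3g1 had 123 at 288 bp past its end, 83 bp from Smyd3, with 81.7 in replicate 1 and 39.3 in replicate 2. In 7 of the 8 genes with a peak within 2 kb only, the TSS nearest to the strongest peak belonged to another gene and lay 27 to 196 bp from the summit. In the remaining gene, eIF4EHP, the nearest TSS was also another gene's, that of Syx1A, but 6608 bp away.

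eIF4G2, a germ line copy of the scaffold eIF4G, had 78.7 at 1240 bp upstream, in an intron of CG34355 and 115 bp from its TSS. Replicate 1 gave 43.0 there, with a global IDR of 0.397, and replicate 2 gave 34.7, which passed. eIF4G1, the broadly expressed scaffold and the sole member on chromosome 4, had no peak, where only 2.5% of genes had one at their TSS. Among 9 copies listed as known mainly from testis or germ line, 0 had an own-TSS peak, and their broadly expressed partners eIF3f1, eIF3g1, eIF4E1, eIF4G1 and eIF4H1 had none either. Over all genes the share was 18.7%, so the copies are too few for their count of 0 to be read further.

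The cap-binding family held 7 genes, of which only eIF4EHP had peaks. Over all genes 33.3% had a peak inside or within 2 kb, and 7 genes are too few for the count to be read further. eIF4EHP binds the cap without eIF4G and is known in the fly embryo for silencing caudal mRNA together with Bicoid. It spans 45884 bp and carried 3 intronic series peaks, with signals of 172, 69.3 and 56.0 at 9805, 9185 and 8015 bp from the nearest own TSS. The strongest gave 113 in replicate 1 and 60.4 in replicate 2.

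Entries of the ranked list that pass the IDR threshold but are missing from the thresholded list touched eIF4EHP and eIF4A. The series ranked list held an entry of 953 (rank 27) at chr3R:24109014-24109372, 230 bp upstream of the eIF4EHP TSS and 146 bp from the divergent CG18428. It had a global IDR of 1e-05 there and in each replicate, with 587 (rank 24) in replicate 1 and 359 (rank 31) in replicate 2. None of the thresholded lists held it. Its sequence, printed above, has TAATTA starting at 3 and 48 bp from the summit. eIF4A, the helicase that unwinds mRNA leaders, had an entry of 61.4 at 72 bp upstream with a global IDR of 0.00165, and another of 76.7 near chic, the profilin gene, neither of them in the thresholded list. The first gave 25.0 in replicate 1 and 37.6 in replicate 2, with global IDRs of 0.819 and 0.123, so neither replicate passed alone. The entry near chic, 675 bp upstream of eIF4A, gave 52.7 and 32.1, with global IDRs of 0.00166 and 0.0859. It thus passed in replicate 1 only, whose thresholded list also lacked it. Of all series ranked entries at a global IDR of at most 0.01, 147 were absent from the thresholded list, for a reason that the sources used here do not state. With them, 12 genes had an own-TSS entry and 19 an entry within 2 kb. The share over all genes was not taken at this threshold, so these counts do not show a gain particular to the family. At a looser global IDR of 0.05, 12 genes (27.3%) had an own-TSS entry, against 21.7% of all genes.

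Of the 34 genes without an own-TSS peak, 23 others had some ranked entry within 500 bp of the TSS. Their strongest signals ran from 2.22 at eIF3g1 to 30.9 at eIF3d1, with a median of 18.3, and the lowest global IDR was 0.269. All 23 lay below the 11 own-TSS peaks of the thresholded list, the weakest of which was the second eIF3h peak at 45.4. Close to the top of this range were eIF2Bgamma (30.4), eIF4E5 (30.0), eIF3e (28.4), eIF4E6 (27.6) and eIF4G2 (25.2). eIF2Bdelta (24.1), eIF3b (24.0), eIF2A (23.6) and eIF2alpha (20.5) followed. eIF4E4 (18.9), eIF2Bepsilon (18.3), eIF3f2 (16.2), eIF3j (15.2), eIF3k (14.2), eIF3l (14.2) and eIF3d2 (13.7) were lower. eIF3i (9.26), eIF4E7 (8.73), the main cap-binding gene eIF4E1 (8.69), eIF4B (5.93), a helper of eIF4A, and eIF2Balpha (3.19) were near the bottom. No entry was listed there for eIF2Bbeta, eIF2beta, eIF3f1, eIF3g2, eIF4E3, eIF4G1, eIF4H1, eIF4H2 or eIF5. A ranked entry was present at 35 of 44 TSSs (79.5%), against 76.7% of all genes, so having an entry says little by itself.

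**Figure D5:**
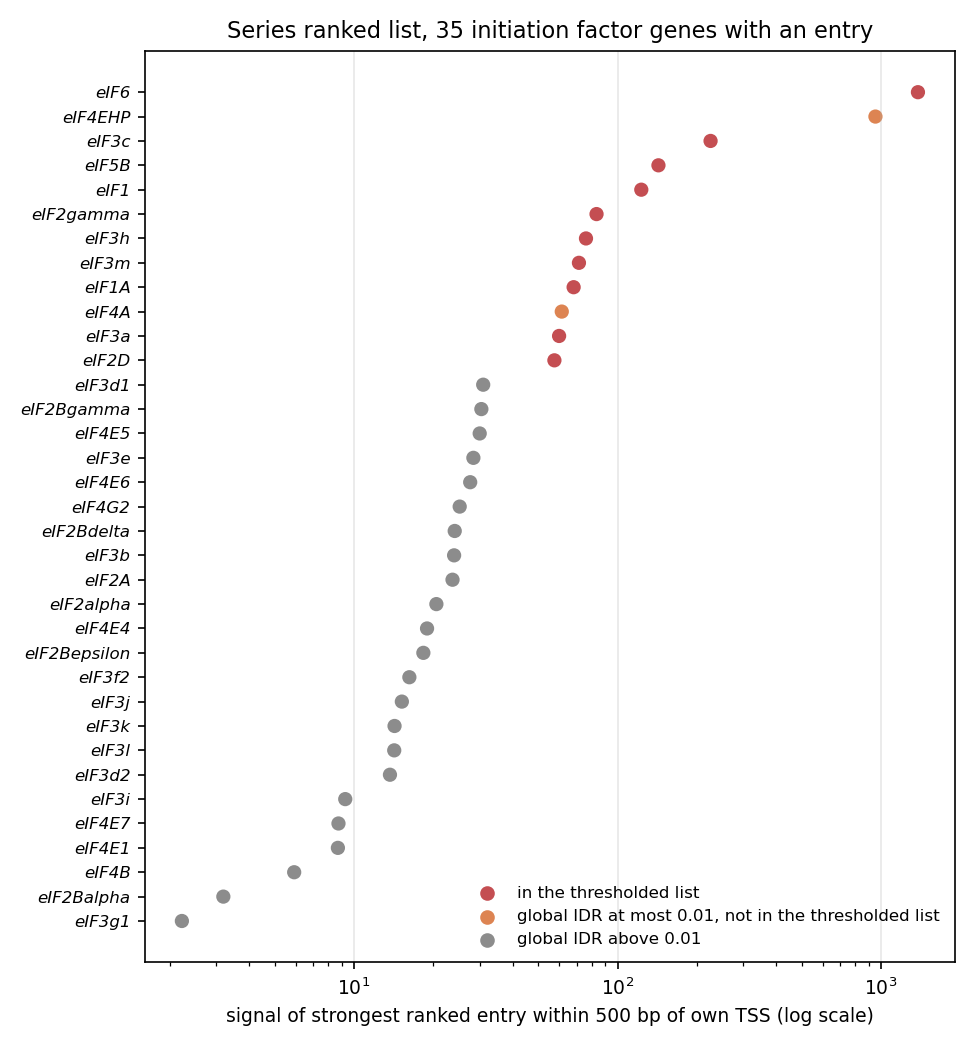
Signal of the strongest entry of the series ranked list within 500 bp of the own TSS, on a log axis, for the 35 initiation factor genes with one. Red points are in the thresholded list, orange points pass a global IDR of 0.01 but are absent from it (eIF4EHP at 953, eIF4A at 61.4), and grey points do not pass (at most 30.9).

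By chromosome arm, own-TSS peaks were at 1 of 3 genes on 2L, 3 of 9 on 2R, 2 of 11 on 3L, 4 of 13 on 3R, 0 of 1 on chromosome 4 and 0 of 7 on X. Over all genes the X share was 18.6% and the large autosomal arms ran from 17.0% on 2R to 20.0% on 3R. The X members, which include eIF2alpha, eIF2Bbeta, eIF2Bepsilon, eIF3g1, eIF4E7, eIF4H1 and eIF5, are too few for their count of 0 to be read further. At the 2 kb limit, eIF3d1 at 1310 bp was the covered gene farthest from its nearest summit, while eIF4E1 at 2316 bp and eIF3b at 2358 bp were the nearest outside.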

How the data were processed

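Anti-GFP ChIP-seq of al-eGFP embryos was analysed in 2 biological replicates. The authors deposited thresholded and ranked peak lists for each replicate and for both together, on assembly dm6 per the notes that accompany the samples. Those notes name 1 more input of the thresholded lists without its role. For the aligner and the peak caller, names and versions were not given in the sources used here. Signal, as deposited by the authors, is an enrichment value with unstated scaling, used only within a list or side by side. The authors' −log10 q value was converted to a q value, and the deposited −log10 global IDR, read from the values as a score column, to an IDR. Read depth is unknown, so no intervals are given.

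Summits were set against Ensembl release 115 (BDGP6.54) over the chromosome arms and the release 6 RefSeq sequence, in which all 44 members matched by symbol and span. A gene was covered when a summit lay within 500 bp of the TSS of any of its transcripts, or inside it or within 2 kb, and a summit could count for several genes. Overlap between replicates needed 1 bp. The assignment of summits to genes was checked on simulated summits planted at known distances from TSSs, which is a check of the calculation and no comparison with chance. Every initiation factor gene was named, with values for those with a peak, and neighbours were named where their TSS was nearest. Related genes were a list of symbols, of which 24 matched. Motifs were searched within 100 bp of summits and in windows of 300 bp. Alternatives were the other lists, a q limit, other windows, TSS choices and overlaps. The members and lists were chosen with earlier results of these data known, and no test over members was made. The tools were Python 3.11.15 with pandas 2.3.3, numpy 2.4.6, matplotlib 3.10.9 and scipy 1.17.1.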

Additional observations from a re-analysis of the deposited data

How the results depend on the processing

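The own-TSS count of 10 genes ran from 6 (replicate 2 alone) to 10 (replicate 1 alone), and was 6 when a summit counted only for the nearest TSS. It was 8 in the conservative list and with a q of at most 0.05, 9 at 250 bp and 11 at 1000 bp. It was 10 for any overlap and for the outermost 5′ end. The count of 18 within 2 kb ran from 14 to 16 in single replicates, was 15 at 1 kb and 23 at 5 kb, and fell to 3 inside the gene only. The median signal of 79.6 was 103 in the conservative list, which lacks the 2 weakest genes, and 52.9 to 55.2 in single replicates, whose signals are below the series signals at all 10 genes. The 6 genes with overlapping replicate peaks stayed 6 at an overlap of 50%, and the DRE count of 4 was 6 within 250 bp and 5 in the promoter window. Chosen after seeing the data, the union of the lists gave 10, and ranked entries at a global IDR of at most 0.01 gave 12 and 19. For neither choice was a share over all genes taken. Nor was one taken for the q limit, the other windows and distances, any overlap, the TSS choices or the count inside the gene. Changes in these counts therefore do not show anything particular to the family. No paired analysis was possible because there is 1 group only. Unknown depth and 2 replicates limit precision.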
